A study of Mus musculus with 46 samples.

Results

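A set of 10 genes of nucleic acid sensing and of the TBK1 signalling behind it was followed in the liver, kidney and cerebellum of young mice. They were taken by symbol from a table of 53465 genes, and all 10 were found. Ddx58, Ifih1, Dhx58, Tlr3 and Tlr7 encode sensors, Mavs and Tmem173 encode adaptors, Tbk1 and Ikbke encode kinases, and Irf3 encodes the transcription factor those kinases act on. The mice were C57BL/6 animals at postnatal day 23, and every animal carried the P195A allele of Adar. That allele changes the part of ADAR1 p150 that binds Z-form nucleic acids. In the P195A/p150- animals, called p150-negative here, the second allele makes no p150, so the changed p150 is the sole one left. In the P195A/p150+ animals, called p150-positive here, the second allele still makes p150. The comparison asks how expression differs between animals with only the changed p150 and animals that also keep an unchanged one.

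RIG-I (Ddx58) and MDA5 (Ifih1) bind double-stranded RNA in the cytosol and signal through MAVS on the outer membrane of mitochondria, while LGP2 (Dhx58) binds such RNA but lacks the signalling domains of the other two. TLR3 and TLR7 detect double-stranded and single-stranded RNA in endosomes, and STING (Tmem173) carries the signal of cytosolic DNA. The routes of MAVS, STING and TLR3 meet at TBK1 and IKKε (Ikbke), which phosphorylate IRF3, and IRF3 then switches on the interferon beta gene. ADAR1 edits adenosines in double-stranded RNA and is known for keeping the cell's own RNA from activating MDA5. Interferon in turn raises the RNA of several of the sensors.

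Used were 7 p150-negative and 7 p150-positive livers, 5 p150-negative and 7 p150-positive kidneys, and 8 p150-negative and 7 p150-positive cerebella, from 16 animals, 8 of each genotype. These 41 libraries held 0.27 to 6.24 M counts (M, 1000000). A further 5 libraries were left out because genes that mark their labelled tissue were at most 0.825% of the level usual for that label, against at least 59.8% in those kept. Few genes were detected in kidney libraries of p150-negative animal 3 (6919 genes) and p150-positive animal 5 (12055), in the liver library of p150-negative animal 16 (12886) and in the cerebellum library of p150-negative animal 11 (11235), so calls of members that changed without these libraries are given both ways. The cerebellum of p150-negative animal 2 stood apart too. The summed level of 26 interferon-stimulated genes was 248 CPM there (counts per 1000000 of the library), against 2248 to 3928 CPM in the other p150-negative cerebella and 203 to 408 CPM in p150-positive ones. Adar RNA was counted over all its transcripts, which cannot show the loss of p150 alone. In liver its median was 7.62 CPM in p150-negative animals, against 10.9 CPM in p150-positive ones. It was 15.7 CPM in p150-negative and 18.0 CPM in p150-positive kidneys and 28.1 CPM in p150-negative and 23.3 CPM in p150-positive cerebella, and no tissue's difference passed the test. The labels do not say whether animals shared a litter, and the p-values measure the spread between animals of a genotype.

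The promoters of Ddx58, Ifih1 and Mavs show how these genes differ in sequence around their start sites. Each window runs 5′ to 3′ along the gene's own strand and holds 250 bases before and 50 bases after the RefSeq start (GRCm38.p6). Capitals mark 2 copies of GAAA spaced by 2 bases of any kind, on either strand, the core of an interferon-stimulated response element. The windows lie at chr4:40239776-40240075 on the minus strand (Ddx58), chr2:62646206-62646505 on the minus strand (Ifih1) and chr2:131233813-131234112 on the plus strand (Mavs).
Ddx58: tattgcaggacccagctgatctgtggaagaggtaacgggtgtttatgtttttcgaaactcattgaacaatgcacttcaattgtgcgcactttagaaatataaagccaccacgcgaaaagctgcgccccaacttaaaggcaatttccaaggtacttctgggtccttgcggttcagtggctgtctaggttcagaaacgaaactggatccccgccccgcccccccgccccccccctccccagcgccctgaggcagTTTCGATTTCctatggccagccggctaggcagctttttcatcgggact
Ifih1: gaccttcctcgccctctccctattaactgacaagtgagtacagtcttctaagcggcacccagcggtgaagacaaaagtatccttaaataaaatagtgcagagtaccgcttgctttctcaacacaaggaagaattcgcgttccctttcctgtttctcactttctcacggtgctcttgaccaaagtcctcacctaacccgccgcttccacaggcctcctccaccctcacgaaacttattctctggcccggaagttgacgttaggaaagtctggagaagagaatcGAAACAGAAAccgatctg
Mavs: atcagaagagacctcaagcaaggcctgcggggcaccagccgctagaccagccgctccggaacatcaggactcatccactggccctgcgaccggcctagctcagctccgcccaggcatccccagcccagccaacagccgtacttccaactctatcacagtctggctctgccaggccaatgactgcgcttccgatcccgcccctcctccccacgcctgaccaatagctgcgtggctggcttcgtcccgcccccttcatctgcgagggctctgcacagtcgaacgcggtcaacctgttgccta
The match in Ddx58 reads GAAATCGAAA on the strand opposite to the gene and covers bases 3 to 12 after the start. The match in Ifih1 reads GAAACAGAAA on the gene's strand and covers bases 33 to 42 after the start. No match lies in the Mavs window, nor in those of Tlr3, Tbk1, Ikbke and Irf3, the other members among the 7 of 10 with a RefSeq window. Of 32817 promoter windows of this length, 3.43% held the motif. TTCNNNGAA, the core of a site for STAT dimers, was in 8.29% of them and in none of the 7. A match says only that these letters stand there.

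In cerebellum, the RNA of the 3 cytosolic RNA helicases was many-fold higher in p150-negative than in p150-positive mice. Ddx58, Ifih1 and Dhx58 rose, while the other members that could be tested did not pass the test. Of 9 members tested, 3 were called higher and 0 lower at an adjusted p under 0.05 (edgeR's quasi-likelihood test, Benjamini-Hochberg over all genes of the tissue). Among all 13146 genes tested there, 0.723% were called higher and 0.274% lower.

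**Figure D1:**
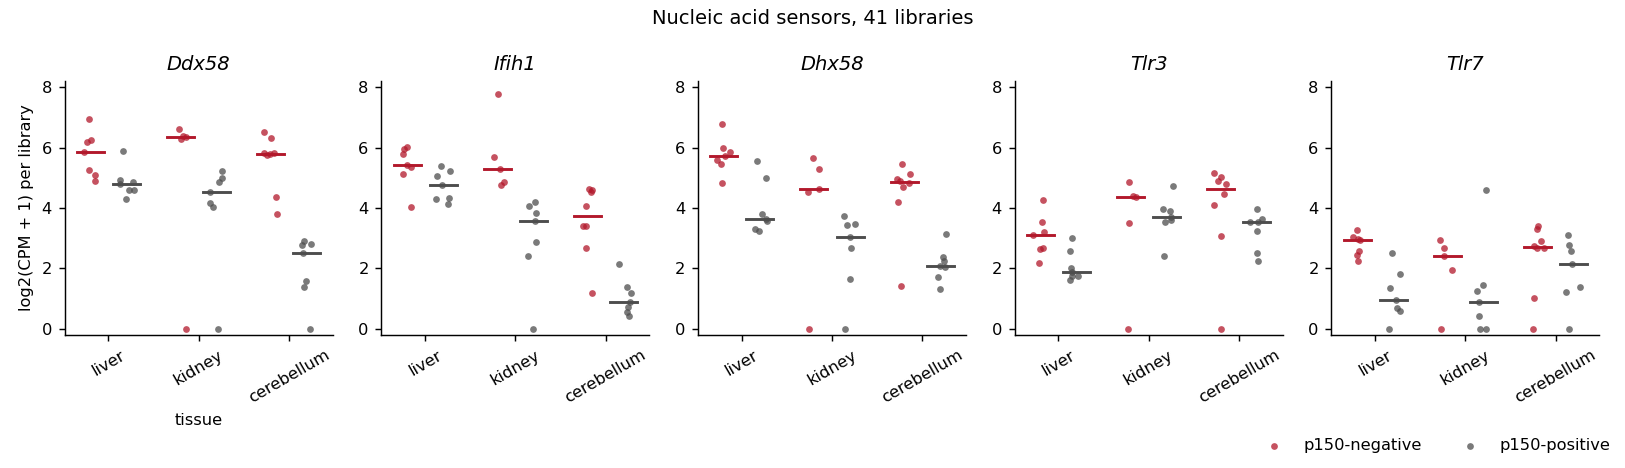
Sensor RNA in each of the 41 libraries, as log2(CPM + 1), by tissue, with p150-negative libraries (red) left of p150-positive ones (grey) and a bar at each group's median. All 8 p150-negative cerebella lie above all 7 p150-positive ones for Ddx58, and in liver the groups overlap for each of the 5 sensors.

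Ddx58 (chr4:40203773-40239828, minus strand) had 12.8, 54.6 and 91.0 CPM in p150-negative cerebella (lowest, median, highest, n = 8), against 0, 4.70 and 6.49 CPM in p150-positive cerebella (n = 7). The groups did not overlap, which held for 0.228% of all genes tested. The log2 fold change was 3.73 ± 0.56 (SE, adjusted p = 8.95e-04). Ifih1 (chr2:62595798-62646255, minus strand) had 1.28, 12.6 and 23.7 CPM in p150-negative cerebella, against 0.338, 0.854 and 3.45 CPM in p150-positive cerebella. In 7 of 8 p150-negative animals it was above every p150-positive one, and the exception was animal 2. Its log2 fold change was 3.44 ± 0.62 (SE, adjusted p = 0.00567). Dhx58 (chr11:100694884-100704271, minus strand) had 1.65, 28.0 and 42.6 CPM in p150-negative cerebella, against 1.498, 3.25 and 7.90 CPM in p150-positive cerebella. Here too 7 of 8 were above every p150-positive library and animal 2 was not, at a log2 fold change between genotypes of 2.74 ± 0.49 (SE, adjusted p = 0.00565). Without animal 2 the log2 fold changes were 3.88 for Ddx58, 3.63 for Ifih1 and 2.93 for Dhx58.

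The rises in cerebellum were also present inside each of the 4 groups of animal identifiers, whose meaning the labels do not give. For Ddx58 the group means were 28.5, 67.5, 79.0 and 53.6 CPM in p150-negative animals, against 5.72, 3.73, 0 and 2.03 CPM in p150-positive animals of the same identifier group. In 2 of these groups each genotype had 1 animal. For Ifih1 the means were 8.82, 12.7, 22.0 and 23.7 CPM in p150-negative animals, against 1.24, 2.05, 0.481 and 0.338 CPM in p150-positive animals. For Dhx58 they were 18.0, 25.3, 42.6 and 34.2 CPM in p150-negative animals, against 4.22, 3.63, 2.25 and 3.72 CPM in p150-positive animals. By limma's voom test, which called 0.213% of genes higher, none of the 3 passed, with adjusted p of 0.0579 for Ddx58, 0.142 for Ifih1 and 0.327 for Dhx58.

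The endosomal sensors did not pass the test in cerebellum. Tlr3 (chr8:45395665-45411080, minus strand) had 0, 23.9 and 34.5 CPM in p150-negative cerebella, against 3.72, 10.6 and 14.7 CPM in p150-positive cerebella. In 6 of 8 p150-negative animals it was above every p150-positive one, at a log2 fold change between genotypes of 1.14 ± 0.49 (SE, adjusted p = 0.445). The library at 0 was that of animal 11, in which few genes were detected, and without it the log2 fold change was 1.31 ± 0.34 (SE, adjusted p = 0.0612). Tlr7 (chrX:167304929-167330558, minus strand) had 0, 5.53 and 9.61 CPM in p150-negative cerebella, against 0, 3.45 and 7.58 CPM in p150-positive cerebella, and the groups overlapped.

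No adaptor, kinase or transcription factor among the members passed the test in cerebellum. Tbk1 (chr10:121546455-121586787, minus strand) had 30.6, 69.3 and 83.6 CPM in p150-negative cerebella, against 55.6, 67.9 and 87.5 CPM in p150-positive cerebella. Its log2 fold change was -0.13 ± 0.19 (SE, adjusted p = 0.885), the narrowest estimate among the members there. Irf3 (chr7:44997648-45002848, plus strand) had 19.2, 33.8 and 60.3 CPM in p150-negative cerebella, against 21.5, 30.0 and 37.8 CPM in p150-positive cerebella. Mavs (chr2:131234063-131248025, plus strand) had 2.51, 10.9 and 29.6 CPM in p150-negative cerebella, against 9.94, 16.7 and 29.7 CPM in p150-positive cerebella. Their log2 fold changes were 0.19 ± 0.26 for Irf3 and -0.57 ± 0.45 for Mavs (SE), and neither passed. Tmem173 had 0, 9.21 and 17.5 CPM in p150-negative cerebella, against 1.92, 3.72 and 6.40 CPM in p150-positive cerebella, with 6 of 8 p150-negative libraries above every p150-positive one and 2 at 0 (log2 fold change 1.129 ± 0.68 (SE), adjusted p = 0.652). Ikbke (chr1:131254343-131279606, minus strand) was below the filter on low counts, with means of 2.93 ± 3.54 CPM in p150-negative and 1.65 ± 1.53 CPM in p150-positive cerebella (SD, n = 8 and 7, two-sided exact permutation test, p = 0.399).

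**Figure D2:**
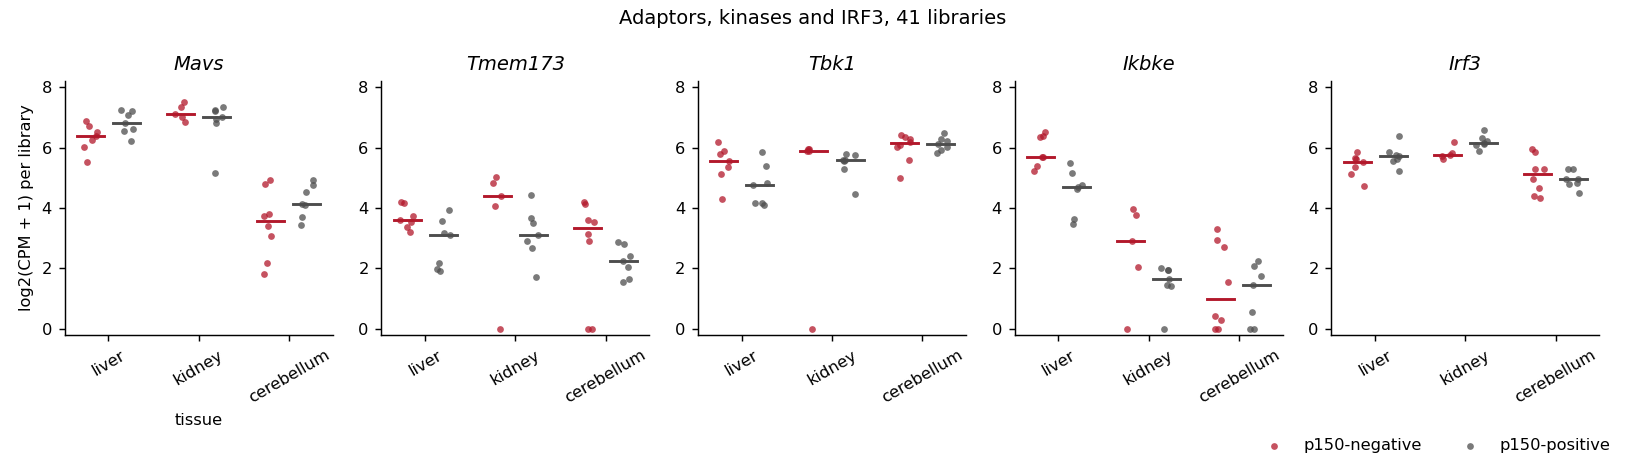
RNA of the adaptors Mavs and Tmem173, the kinases Tbk1 and Ikbke, and Irf3 in each of the 41 libraries, as log2(CPM + 1), by tissue, with p150-negative libraries (red) left of p150-positive ones (grey) and a bar at each median. Genotypes overlap in each panel and tissue, and Mavs and Ikbke lie far lower in cerebellum than in liver.

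In liver, sensors of both compartments and the inducible kinase of the set were higher in p150-negative mice. Ikbke, Dhx58, Tlr7, Ddx58 and Tlr3 rose, and no member fell. These are 5 of 10 members, where 6.94% of all 9843 genes tested were called higher and 4.76% lower. The median log2 fold change of the members was 0.93, against -0.04 over all genes tested. Every member's range overlapped between the genotypes, while 2.45% of genes tested had all p150-negative livers above all p150-positive ones.

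Ikbke had 36.1, 50.9 and 90.1 CPM in p150-negative livers, against 10.0, 25.0 and 44.2 CPM in p150-positive livers. All 7 p150-negative livers were above the p150-positive median, and 5 were above every p150-positive liver. The log2 fold change was 1.35 ± 0.29 (SE, adjusted p = 0.00326). Dhx58 had 27.4, 51.1 and 110 CPM in p150-negative livers, against 8.36, 11.3 and 46.0 CPM in p150-positive livers, a log2 difference between genotypes of 1.64 ± 0.36 (SE, adjusted p = 0.00422). Among p150-positive animals, animal 12 at 46.0 CPM and animal 7 at 30.5 CPM were high for it, and the other 5 lay at or below 12.8 CPM. Ddx58 had 28.9, 56.7 and 122.5 CPM in p150-negative livers, against 18.5, 26.8 and 58.2 CPM in p150-positive livers, a log2 difference between genotypes of 1.06 ± 0.29 (SE, adjusted p = 0.0182). The highest p150-positive value was again animal 12, and the next was 29.3 CPM. Without p150-negative animal 14, the highest liver, the adjusted p of Ddx58 was 0.0576.

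The endosomal receptors were scarce in liver and higher in p150-negative animals. Tlr7 had 3.76, 6.59 and 8.72 CPM in p150-negative livers, against 0, 0.929 and 4.75 CPM in p150-positive livers, a log2 difference between genotypes of 2.02 ± 0.53 (SE, adjusted p = 0.0153). In 5 of 7 p150-negative livers it was above every p150-positive one. Tlr3 had 3.55, 7.51 and 18.2 CPM in p150-negative livers, against 2.09, 2.70 and 7.10 CPM in p150-positive livers, a log2 difference between genotypes of 1.28 ± 0.38 (SE, adjusted p = 0.0340). The call of Tlr3 was not firm: its adjusted p was 0.0521 without animal 16, 0.0524 with the identifier group as a block, and up to 0.129 when single libraries were left out (animal 14).

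The remaining liver members did not pass. Ifih1 had 15.2, 41.5 and 63.9 CPM in p150-negative livers, against 16.6, 26.1 and 41.1 CPM in p150-positive livers (log2 fold change 0.69 ± 0.27 (SE), adjusted p = 0.120). With the identifier group as a block its adjusted p was 0.0349, and without p150-positive animal 13 it was 0.0494. Tbk1 had 18.8, 46.1 and 71.4 CPM in p150-negative livers, against 16.0, 26.2 and 56.9 CPM in p150-positive livers (log2 fold change 0.74 ± 0.29 (SE), adjusted p = 0.120). Its adjusted p was 0.0177 without p150-positive animal 12 and 0.0433 by limma's voom test. Tmem173 had 8.22, 11.1 and 17.1 CPM in p150-negative livers, against 2.79, 7.51 and 14.3 CPM in p150-positive livers, and Mavs had 45.1, 82.6 and 117 CPM, against 72.9, 112 and 151 CPM in p150-positive livers. Mavs and Irf3 were the members with estimates below 0, at log2 fold changes of -0.43 ± 0.19 (SE, adjusted p = 0.167) for Mavs and -0.32 ± 0.19 (SE, adjusted p = 0.350) for Irf3. Irf3 had 25.3, 45.2 and 56.2 CPM in p150-negative livers, against 36.7, 52.2 and 83.1 CPM in p150-positive livers.

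Inside the 4 identifier groups, the mean of Ddx58, Dhx58, Ikbke and Tlr3 was higher in p150-negative livers each time. For Ikbke the means were 43.4, 73.7, 82.6 and 41.3 CPM in p150-negative animals, against 17.4, 34.7, 10.0 and 26.1 CPM in p150-positive animals. For Ddx58 they were 30.9, 68.0, 122.5 and 37.6 CPM in p150-negative animals, against 28.0, 34.8, 18.5 and 27.8 CPM in p150-positive animals, so the first group was close to equal. Tlr7 was higher in 3 of 4 groups and was 3.76 CPM in the p150-negative animal of the fourth, against 4.75 CPM in the p150-positive one. When the liver library of animal 2 that lacked liver genes was put back, the adjusted p was 0.0848 for Ddx58, 0.0984 for Dhx58, 0.0704 for Tlr7 and 0.257 for Ikbke, and Tlr3 alone among the members was called, beside 4.39% of genes called higher.

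Markers of macrophages (Kupffer cells included), neutrophils and monocytes were higher in p150-negative livers. No marker of the other cell types was called higher, but few lymphocyte and no plasmacytoid dendritic cell markers could be tested. The summed level of 14 macrophage markers was 1719 to 3821 CPM in p150-negative livers, against 589 to 1410 CPM in p150-positive livers, and 12 of 13 tested were called higher. The 11 neutrophil markers summed to 453 to 1680 CPM in p150-negative livers, against 26.8 to 176.5 CPM in p150-positive livers, with 8 of 8 tested called higher. The 6 monocyte markers summed to 180 to 371 CPM in p150-negative livers, against 17.2 to 58.4 CPM in p150-positive livers, with 5 of 5 called higher. The 8 plasmacytoid dendritic cell markers summed to at most 5.07 CPM in p150-negative and 4.16 CPM in p150-positive livers, with Lag3 at 0 in both. Their median sums were 3.43 CPM in p150-negative and 1.70 CPM in p150-positive livers, and none passed the filter for testing there. The same list summed to 3664 to 6463 CPM in p150-negative and 3151 to 6081 CPM in p150-positive kidneys, so its sum need not follow these cells. T and NK cell markers summed to 18.1 to 72.1 CPM in p150-negative livers, against 6.17 to 23.4 CPM in p150-positive livers. Of these 10 markers 2 were tested and 0 called, at a median log2 fold change of 1.42. B cell markers stayed under 21.8 CPM, with 1 of 7 tested and 0 called. Endothelial markers summed to 195.4 to 294 CPM in p150-negative livers, against 210 to 413 CPM in p150-positive livers, with 0 of 10 called higher and 1 lower. The part of these cells in the members' values was not tested, and in whole tissue more cells of a type and more RNA per cell cannot be told apart.

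In kidney, no member passed the test with all 12 libraries, and 3 did once the libraries of few detected genes were left out. The 3 were the RNA helicases that also rose in cerebellum. With all 12 libraries, 0 of 8 members tested were called by edgeR. An unadjusted p below 0.05 was reached by 4 of them, beside 979 of 11957 genes tested. Of these 4, Ddx58, Ifih1 and Dhx58 were higher in p150-negative kidneys and Irf3 was lower. DESeq2 called 1 member, Ifih1, beside 1.23% of genes called higher by that tool. Among all 11957 genes tested, 0.385% were called higher and 0.309% lower. Without p150-negative animal 3 and p150-positive animal 5, which was chosen with the values known, Ddx58, Dhx58 and Ifih1 were called, beside 2.15% of 12352 genes called higher. The median log2 fold change of the 8 members was 0.68, against -0.07 over all genes tested.

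Ddx58 had 96.6, 83.2, 80.3, 77.5 and 0 CPM in the 5 p150-negative kidneys, against 0, 21.9 and 36.0 CPM in p150-positive kidneys (lowest, median, highest, n = 7). The p150-negative library at 0 was that of animal 3, where a count of 0 allows up to 11.1 CPM by counting error, and the p150-positive one at 0 was animal 5. The other 4 p150-negative kidneys were all above every p150-positive one. The log2 fold change was 1.64 ± 0.63 with all libraries (SE, adjusted p = 0.395) and 1.71 ± 0.21 without both (SE, adjusted p = 2.34e-04). Dhx58 had 49.0, 37.7, 23.7, 21.8 and 0 CPM in p150-negative kidneys, against 0, 7.18 and 12.3 CPM in p150-positive kidneys, with the same 2 libraries at 0. Its log2 fold change was 1.96 ± 0.64 with all libraries (SE, adjusted p = 0.268) and 2.02 ± 0.34 without both (SE, adjusted p = 0.00312).

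Ifih1 was the member with reads in animal 3 beside Mavs and Irf3, and it was high there. It had 219, 50.1, 38.5, 28.3 and 26.3 CPM in p150-negative kidneys, against 0, 11.0 and 17.4 CPM in p150-positive kidneys. The 219 CPM came from 59 counts in animal 3, the library in which Ddx58, Dhx58, Tlr3, Tlr7, Tmem173, Tbk1 and Ikbke all had 0 counts. Every p150-negative kidney was above every p150-positive one, which held for 0.828% of all genes tested. The log2 fold change was 2.57 ± 0.63 with all libraries (SE, adjusted p = 0.0822) and 1.58 ± 0.31 without both (SE, adjusted p = 0.00895). Leaving out animal 3 alone gave adjusted p of 0.0496 for Ddx58 and 0.0440 for Dhx58, and 0.969% of all genes were then called higher.

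The other kidney members did not pass with or without these libraries. Tmem173 had 31.6, 27.3, 20.0, 15.6 and 0 CPM in p150-negative kidneys, against 2.31, 7.59 and 20.6 CPM in p150-positive kidneys (log2 fold change 1.06 ± 0.55 (SE), adjusted p = 0.655). Tbk1 had 61.4, 61.0, 58.2, 57.4 and 0 CPM in p150-negative kidneys, against 20.8, 46.6 and 54.6 CPM in p150-positive kidneys, so 4 of 5 were above every p150-positive kidney while the fitted log2 fold change was 0.13 ± 0.44 (SE). Irf3 had 70.9, 55.2, 52.9, 51.4 and 48.3 CPM in p150-negative kidneys, against 58.5, 69.2 and 95.3 CPM in p150-positive kidneys, and 4 of 5 lay below every p150-positive one. Its log2 fold change was -0.47 ± 0.22 (SE, adjusted p = 0.579). Mavs and Tlr3 overlapped widely, with Mavs at 180, 160, 138, 127.5 and 115 CPM and Tlr3 at 28.0, 20.1, 19.7, 10.3 and 0 CPM in p150-negative kidneys. In p150-positive kidneys Mavs had 34.6, 129 and 163 CPM and Tlr3 had 4.28, 12.0 and 25.4 CPM (lowest, median, highest).

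Ikbke and Tlr7 were below the filter in kidney. Ikbke had 14.7, 12.7, 6.57, 3.12 and 0 CPM in p150-negative kidneys, against 0, 2.14 and 2.99 CPM in p150-positive kidneys. All but animal 3 were above every p150-positive kidney, and the difference in means of 5.38 CPM had p = 0.0581 in a two-sided exact permutation test. Tlr7 averaged 3.83 ± 2.55 CPM in p150-negative and 3.92 ± 8.48 CPM in p150-positive kidneys (SD, n = 5 and 7, p = 0.854 in the same exact test). The p150-positive mean rested on 23.1 CPM in animal 5, and the next highest was 1.76 CPM.

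In kidney the neutrophil markers summed to 108 to 245 CPM in p150-negative, against 9.00 to 85.5 CPM in p150-positive animals, with 1 of 3 called higher, and the monocyte markers to 113.5 to 275 CPM, against 39.7 to 103 CPM in p150-positive kidneys, with 1 of 3 called. Macrophage markers overlapped there, at 204 to 763 CPM in p150-negative and 207 to 496 CPM in p150-positive kidneys, with 0 of 8 called. In cerebellum 3 of 9 macrophage markers were called higher, with sums of 290 to 694 CPM in p150-negative and 200 to 328 CPM in p150-positive cerebella. Microglia markers were at 136 to 360 CPM in p150-negative and 142 to 285 CPM in p150-positive cerebella, with 0 of 9 called, and the neutrophil markers had 0 of 6 called. Without the libraries of few genes, the setting in which the helicases were called in kidney, 6 of 6 neutrophil, 3 of 4 monocyte, 1 of 8 macrophage and 1 of 3 T and NK cell markers were called higher there. In cerebellum 4 of 9 macrophage and 1 of 9 microglia markers were then called higher, beside 0.875% of all genes. The part of these cells in the kidney and cerebellum values was not tested.

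**Figure D3:**
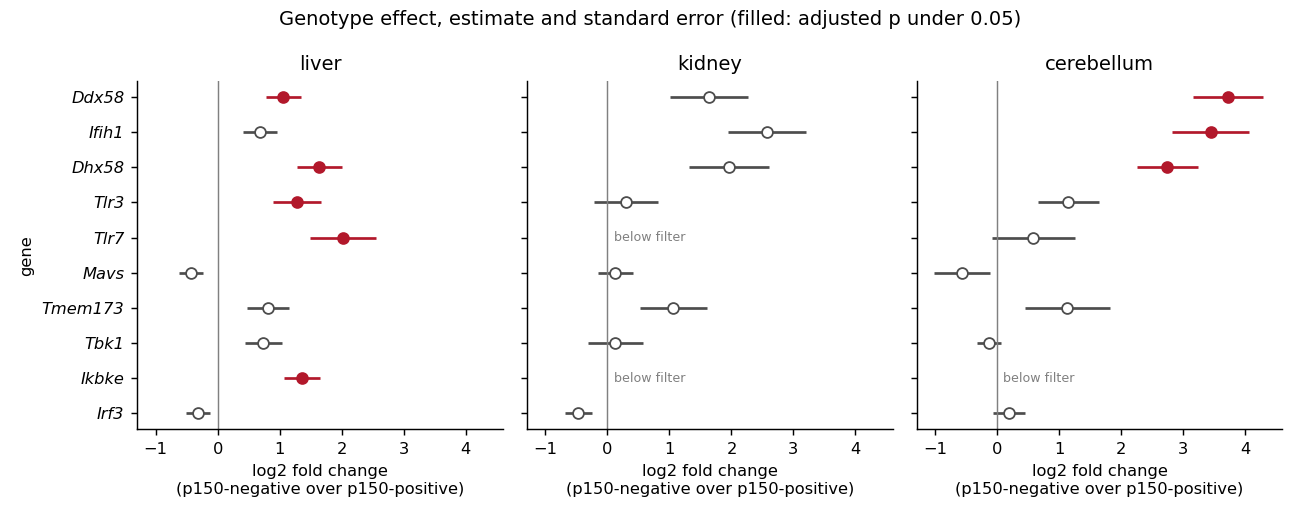
Log2 fold change of each member, p150-negative over p150-positive, with its standard error, in liver, kidney and cerebellum. Filled red points passed an adjusted p under 0.05, which are 5 members in liver, 0 in kidney and 3 in cerebellum, and the cerebellar points of Ddx58 (3.73) and Ifih1 (3.44) lie farthest from 0.

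By role, 7 of the 8 calls in the 3 tissues were of sensors, with Ddx58 and Dhx58 counted in both liver and cerebellum. Over all genes tested, 6.94% were called higher in liver, 0.385% in kidney and 0.723% in cerebellum. By voom none of the calls in cerebellum passed. Their median log2 fold change was 2.74 in cerebellum with 3 of 5 called higher, 1.28 in liver with 4 of 5 and 1.80 in kidney with 0 of 4 tested. The adaptors had medians of 0.28 in cerebellum, 0.19 in liver and 0.60 in kidney, and 0 of 2 were called in each. The kinases with Irf3 had medians of 0.03 in cerebellum with 0 of 2 tested called, 0.74 in liver with 1 of 3 called higher and -0.17 in kidney with 0 of 2. Ikbke was the called member of that group, and it is a kinase whose RNA is known to be inducible, while Tbk1 is present in most cells. In kidney and cerebellum Ikbke was below the filter, so that group's medians there are of Tbk1 and Irf3 alone.

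The genotype effect on Ddx58 and Ifih1 was larger in cerebellum than in liver by a test of the difference itself. The interaction of genotype and tissue was 2.65 ± 0.61 on the log2 scale for Ddx58 (SE, adjusted p = 0.0111) and 2.79 ± 0.64 for Ifih1 (SE, adjusted p = 0.0103). Among 14063 genes, 1.31% had a larger effect in cerebellum and 1.37% a smaller one. Dhx58 differed by 1.10 ± 0.61 (SE, adjusted p = 0.419) and Tbk1 by -0.87 ± 0.36 (SE, adjusted p = 0.220), and neither passed. Between kidney and liver, 0 of 10 members differed by edgeR, where 0.655% of genes had a larger effect in kidney and 0.848% a smaller one. One member, Ifih1, had an unadjusted p under 0.05 (difference 1.78 ± 0.63 (SE), adjusted p = 0.220). Between cerebellum and kidney 0 of 10 differed, against 0.114% of all genes in either direction, and Ddx58 had an unadjusted p under 0.05 (difference 2.07 ± 0.90 (SE), adjusted p = 0.560).

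Both genes were scarce in p150-positive cerebellum and closer between tissues in p150-negative mice. In p150-negative mice the median of Ddx58 was 54.6 CPM in cerebellum, 80.3 CPM in kidney and 56.7 CPM in liver. In p150-positive mice it was 4.70 CPM in cerebellum, 21.9 CPM in kidney and 26.8 CPM in liver. For Ifih1 the p150-negative medians were 12.6 CPM in cerebellum, 38.5 CPM in kidney and 41.5 CPM in liver. Its p150-positive medians were 0.854 CPM in cerebellum, 11.0 CPM in kidney and 26.1 CPM in liver.

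In p150-positive mice most members were lower in cerebellum than in liver. Of 9 members tested, 7 were lower in cerebellum and 0 higher, where 34.0% of 12538 genes were called lower and 39.1% higher. The log2 differences, cerebellum over liver, were -5.49 ± 0.41 for Ifih1, -4.87 ± 0.56 for Ikbke, -3.94 ± 0.50 for Ddx58, -3.60 ± 0.25 for Mavs, -3.29 ± 0.45 for Dhx58, -1.84 ± 0.42 for Tmem173 and -1.82 ± 0.19 for Irf3 (SE). Tbk1 at 0.28 ± 0.26 and Tlr3 at 0.41 ± 0.38 (SE) did not pass. With RLE size factors the median of all genes shifted by 0.10 in this comparison and by 0.12 between cerebellum and kidney, in both towards higher values in cerebellum, and no direction of a called member changed.

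Kidney was lower than liver for Ikbke (-4.32 ± 0.42), Ifih1 (-2.28 ± 0.44), Dhx58 (-2.25 ± 0.53), Ddx58 (-1.28 ± 0.44) and Mavs (-0.73 ± 0.25) on the log2 scale (SE). Tlr3 was higher in kidney, by 1.06 ± 0.40 (SE, adjusted p = 0.0393), a call that was lost without the libraries of few genes (adjusted p = 0.0719). These 6 calls among 9 members tested stand beside 44.7% of 11286 genes that differed in either direction. Tmem173, Tbk1 and Irf3 did not pass between kidney and liver. Cerebellum was lower than kidney for Ifih1 (-3.15 ± 0.62), Mavs (-2.85 ± 0.30), Ddx58 (-2.63 ± 0.66), Irf3 (-1.42 ± 0.16) and Tmem173 (-1.36 ± 0.43) and higher for Tbk1 (0.51 ± 0.18) on the log2 scale (SE), 6 of 8 tested beside 65.3% of 12932 genes. With the animal as a block, the adjusted p was 0.0649 for Ddx58 and 0.0885 for Tmem173 there. Dhx58 and Tlr3 did not pass between cerebellum and kidney. Without the libraries of few genes Dhx58 did, at -1.19 ± 0.41 (SE, adjusted p = 0.0156), beside 70.7% of genes called in either direction. Tlr7 was too low for these tests, and Ikbke too low for the test of cerebellum against kidney.

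**Figure D4:**
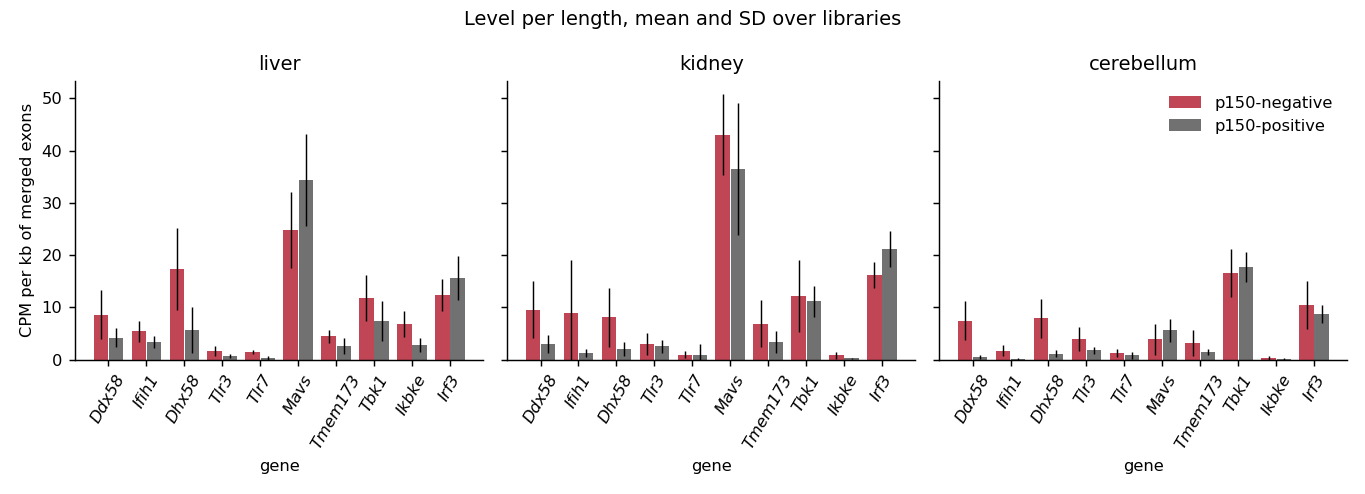
Mean CPM per kilobase of merged exons for each member, with the SD over libraries (bars down to 0 where the SD exceeds the mean), p150-negative (red) left of p150-positive (grey). Mavs is the highest bar in liver and kidney and Tbk1 the highest in cerebellum, in both genotypes.

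Per length of merged exons, the order of the members differed between tissues. In liver the levels in CPM per kilobase were led by Mavs, at 24.8 in p150-negative and 34.5 in p150-positive animals. Dhx58 followed at 17.4 in p150-negative livers, against 5.61 in p150-positive livers, and Irf3 was at 12.4 in p150-negative and 15.6 in p150-positive livers. In cerebellum Tbk1 was highest, at 16.7 in p150-negative and 17.7 in p150-positive animals. Irf3 was next there, at 10.4 in p150-negative and 8.78 in p150-positive cerebella. Ddx58 was at 7.46 CPM per kilobase in p150-negative cerebella, against 0.540 in p150-positive ones, and Dhx58 at 7.90, against 1.129 in p150-positive ones. Both lay above Mavs (3.90 CPM per kilobase) in p150-negative cerebella and below it (5.65) in p150-positive ones. Ifih1 lay below Mavs in both genotypes, at 1.69 in p150-negative and 0.151 in p150-positive cerebella.

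Reads of some members could belong to a gene on the other strand. In the GENCODE annotation 381 exon bases of Tlr3 overlap Gm45542, 141 of Dhx58 overlap Dhx58os, 159 of Ikbke overlap Gm28914, 65 of Ikbke overlap Gm28913 and 88 of Irf3 overlap Bcl2l12. Whether counting used the strand is not given in the sources used here, so reads there cannot be told apart. The merged exons of these members span 5207 bases for Tlr3, 3272 for Dhx58, 9018 for Ikbke and 3442 for Irf3.

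Genes known to act on the RNA sensors were listed too, and none of those tested was called in any tissue. The list holds enzymes that add or remove ubiquitin on RIG-I and MAVS, phosphatase subunits, helicases and other RNA-binding proteins, and the mitochondrial protein Nlrx1. Of its members tested, 0 of 19 in liver, 0 of 21 in kidney and 0 of 20 in cerebellum were called in either direction, with median log2 fold changes of 0.06, 0.04 and 0.07 in these tissues. Over all genes, 6.94% were called higher and 4.76% lower in liver, 0.385% and 0.309% in kidney, and 0.723% and 0.274% in cerebellum. In kidney and cerebellum, 0 calls in a list of this size stand close to these shares. Trim25, the ubiquitin ligase of RIG-I, had the smallest adjusted p in cerebellum, at 1.88 ± 0.72 on the log2 scale (SE, adjusted p = 0.363). In liver the smallest belonged to Rnf135, another ubiquitin ligase of RIG-I, at 0.44 ± 0.22 (SE, adjusted p = 0.242).

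Of the proteins that link MAVS to TBK1 and to NF-kB, few were called. In liver 2 of 17 tested were higher and 0 lower, close to the 6.94% of all liver genes called higher. Tnfaip3, the NF-kB-induced inhibitor A20, was at 2.61 ± 0.55 on the log2 scale (SE, adjusted p = 0.00271), and Traf6, a ubiquitin ligase, 1.03 ± 0.28 (SE, adjusted p = 0.0170). In cerebellum 1 of 17 was higher: Optn, an adaptor that binds TBK1, at 0.82 ± 0.18 (SE, adjusted p = 0.0238). Over all genes there, 0.723% were called higher. In kidney 0 of 19 were called, where 0.385% of all genes were called higher and 0.309% lower. The medians were 0.07 in liver and in cerebellum and -0.02 in kidney.

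In the endosomal route, 7 genes were called in liver, 1 in cerebellum and 0 in kidney, where 6.94%, 0.723% and 0.385% of all genes were called higher. The difference between tissues was not tested. In liver 7 of 18 tested were higher in p150-negative mice and 0 lower, with a median log2 fold change of 0.63. Among them were the lysosomal proteases Lgmn at 1.55 ± 0.18 (SE, adjusted p = 7.53e-06) and Ctss at 1.61 ± 0.28 (SE, adjusted p = 4.82e-04), both abundant in macrophages. Irak3, an inhibitor of Toll-like receptor signalling, was at 3.61 ± 0.53 (SE, adjusted p = 8.65e-05), and Myd88, the adaptor of TLR7, at 1.03 ± 0.21 (SE, adjusted p = 0.00244). In cerebellum 1 of 16 was higher, Ctss at 1.76 ± 0.27 (SE, adjusted p = 9.74e-04), and Unc93b1, which carries these receptors to the endosome, was at 0.92 ± 0.30 (SE, adjusted p = 0.227). In kidney 0 of 17 were called with all libraries and 1, Ctss, without those of few genes (adjusted p = 0.00511). Macrophage, monocyte and neutrophil marker sums were also higher in p150-negative livers, and the part of these cells in these genes' values was not tested.

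A list of DNA sensing and nucleic acid breakdown had calls in liver and cerebellum. In liver 3 of 14 tested were higher and 1 lower, where 6.94% of all genes were called higher and 4.76% lower. Ifi204, a DNA-binding protein, was at 1.49 ± 0.25 (SE, adjusted p = 3.07e-04), Zbp1, the other mammalian protein with a Z-form nucleic acid domain, at 1.57 ± 0.47 (SE, adjusted p = 0.0327), and Samhd1, which breaks down deoxynucleotides, at 1.02 ± 0.33 (SE, adjusted p = 0.0457). Rnaseh2c, a subunit of RNase H2, was lower at -1.04 ± 0.30 (SE, adjusted p = 0.0254). In cerebellum 3 of 15 were higher and 0 lower, beside 0.723% of all genes called higher, with Ifi204 at 5.60 ± 0.75 (SE, adjusted p = 3.84e-04), Zbp1 at 4.10 ± 0.92 (SE, adjusted p = 0.0331) and Ifi35 at 2.58 ± 0.36 (SE, adjusted p = 5.23e-04). In kidney 0 of 15 were called with all libraries and 3 without those of few genes, namely Zbp1, Ifi204 and Ifi35, beside 2.15% of all genes called higher.

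Of genes listed as targets of IRF3 and NF-kB, most that could be tested were higher in p150-negative mice in each tissue. Which signal raised them was not tested. Of 14 listed, 11 were tested in liver and 9 each in kidney and cerebellum. Of those tested, 9 of 11 in liver, 5 of 9 in kidney and 7 of 9 in cerebellum were called higher and 0 lower, with median log2 fold changes of 2.61, 1.71 and 4.17. Cxcl10, a chemokine for T cells, was at 5.41 ± 0.72 in cerebellum and 3.71 ± 0.60 in kidney (SE, adjusted p = 3.84e-04 and 0.00664). Irf7, the inducible relative of Irf3, was at 4.46 ± 0.61 in cerebellum, 2.33 ± 0.34 in kidney and 2.63 ± 0.31 in liver (SE), while Irf3 itself was not called in any tissue. A wider list of 26 interferon-stimulated genes, which shares 5 genes with these targets and none with the 10 members, had 20 of 26 called higher in liver, 15 of 23 in kidney and 19 of 24 in cerebellum, and 0 lower. Beside both lists stand the shares of all tested genes called higher: 6.94% for liver, 0.385% for kidney and 0.723% for cerebellum. In another fit the kidney-labelled libraries that lacked kidney genes were put back. With them, 0 of the 9 targets and 0 of the 23 stimulated genes were called in kidney, beside 0.00857% of all genes called higher.

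Interferon RNA itself was at or near 0. Of 19 interferon genes in the table, 15 had 0 counts in all 41 libraries. Ifnb1, the interferon beta gene, had 2 counts summed over 7 p150-negative livers, 1 over 5 p150-negative kidneys and 1 over 8 p150-negative cerebella, and 0 in p150-positive mice. Ifnk had 2 counts in p150-negative livers, 1 in p150-negative kidneys and 1 in p150-positive kidneys. Ifna4 had 2 counts in p150-negative cerebella, and Ifng had 1 in p150-positive livers. At this depth none of the 19 passed the filter in any tissue, so the main fits tested no difference in interferon RNA. Near-identical Ifna genes may also share reads.

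Over the 41 libraries, with each tissue's mean removed, Ddx58 and Dhx58 varied together most closely among the members compared, and Mavs varied with neither of them. Pearson's r was 0.86 between Ddx58 and Dhx58, 0.57 between Ddx58 and Ifih1, 0.60 between Ifih1 and Dhx58, -0.01 between Ddx58 and Mavs, and -0.06 between Dhx58 and Mavs. The other adaptor, Tmem173, had r of 0.58 with Ddx58 and 0.68 with Dhx58, and Tbk1 had 0.49 with Ddx58 and 0.52 with Dhx58. These points share genotype and, in part, animals, so r is a description. Among them is p150-negative kidney animal 3, where Ddx58, Dhx58, Tmem173 and Tbk1 had 0 counts and Ifih1 had 219 CPM. The r between members was not computed without the libraries of few genes, so how far it rests on them is not known. Among 8737 genes tested in all 3 tissues, those most like Ddx58 were Irf9 (r = 0.91), Irgm2 (0.91) and Sp100 (0.87). Those most like Dhx58 were Gbp3 (0.91), Irgm2 (0.90) and Irf9 (0.88), and those most like Ifih1 were Usp18 (0.86), Ifi204 (0.84) and Zbp1 (0.84). Mavs was most like Dpp4 (0.76), Tmem129 (0.70) and Ulk3 (0.69). For Tbk1 the nearest were Srxn1 (0.94), Klhl7 (0.94) and Dnajc11 (0.93), and without the libraries of few genes their r was 0.79, 0.73 and 0.71. Ikbke was not tested in all tissues and has no such neighbours here.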

How the data were processed

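Messenger RNA was measured in liver, kidney and cerebellum. Per the labels' protocols, RNA was extracted with TRIzol, DNase-treated and sequenced from Nextera XT libraries. Tools named in the submitters' processing notes are FastQC 0.11.3, SAMtools 1.2, Picard 1.134, STAR 2.4.2a and HTSeq 0.4.1, with GRCm38 (mm10) as the build; the annotation release and the strand setting are not given in the sources used here. The authors deposited raw read counts per gene. Of 53471 entries, 6 repeated identifiers were used once, and entries without a symbol held 0.267% of counts.

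Each tissue was fitted with edgeR 4.0.16 (quasi-likelihood test, TMM, filterByExpr at min.count 10 and min.total.count 15) under R 4.3.3, with Benjamini-Hochberg adjustment over all genes tested and a threshold of 0.05. Each log2 fold change has p150-negative on top, and its standard error was derived from F. CPM values are on library totals. Differences of effect were tested as the interaction of genotype and tissue, and levels between tissues in p150-positive mice. Members below the filter had an exact permutation test of mean CPM. Alternatives were all libraries as labelled, RLE size factors, DESeq2 1.42.0, voom in limma 3.58.1, no filter, a filter at 5 CPM, robust dispersion, the identifier group as a block, Xist as a covariate, leaving out libraries under 1000000 counts or each library in turn, and, chosen after seeing the data, leaving out libraries with fewer than 13000 genes detected. Fits were tested on simulated data.

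Libraries of 1 animal in different tissues pair by the animal number in the labels. Deviations from group means correlated at -0.13 to 0.145 between cerebellum and kidney (11 animals), -0.011 to 0.159 between cerebellum and liver (13) and -0.006 to 0.162 between kidney and liver (11). The animal as a block is given where it changes a call.

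Named genes are all 10 members, up to 4 per pathway list and tissue with the smallest adjusted p, interferon genes with any count, and the 3 most correlated genes of Ddx58, Ifih1, Dhx58, Ikbke, Mavs and Tbk1; not all that met the rule are named. Members, lists and tests were chosen with earlier results of these data known. Positions and exon lengths come from GENCODE M21 (GRCm38). A count of 0 allows up to 3 counts, for counting error only.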

Additional observations from a re-analysis of the deposited data

Results flagged for a closer look

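In 9 of 60 groups of a member, tissue and genotype, 1 library lay far from the rest of its group. A rate of about 1 in 20 would hold for independent normal values. These groups share libraries and hold counts with zeros, so the 9 cannot be set against that rate. P150-negative kidney animal 3, a library of few detected genes, had Ddx58 at 0 CPM (next 77.5), Tbk1 at 0 CPM (next 57.4) and Ifih1 at 219.2 CPM (next 50.1). P150-positive kidney animal 5, also of few genes, had Tlr7 at 23.1 CPM (next 1.76) and Mavs at 34.64 CPM (next 111). P150-positive animal 12 was high for Ddx58 in liver, at 58.18 CPM (next 29.3), and for Ifih1 in cerebellum, at 3.453 CPM (next 1.62), and its liver also had the highest sum of interferon-stimulated genes of its group, 1882 CPM. Dhx58 was 109.8 CPM in the liver of p150-negative animal 14 (next 62.0) and 7.898 CPM in the cerebellum of p150-positive animal 4 (next 4.16). The causes were not tested.

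The genotype effect differed between cerebellum and liver for Ifih1, by 2.788 on the log2 scale (adjusted p = 0.0103), and for Ddx58, by 2.654 (adjusted p = 0.0111), in edgeR's test of the interaction.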

How the results depend on the processing

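Counts of called members stayed within 1.5 times except as follows. In liver 5 members were called higher, against 1 with all libraries as labelled, and 3 to 6 when single libraries were left out (3 without p150-negative animal 14). Genes called in liver were 1152, against 740 with all libraries, 1747 by DESeq2 and 904 to 1489 with single libraries left out. In kidney 0 members were called, against 1 by DESeq2, 1 without a filter, 2 without libraries under 1000000 counts, 3 without libraries of few genes, and 0 to 2 with single libraries left out. Genes called in kidney were 83, against 1 with all libraries, 347 by DESeq2, 141 without a filter, 32 with the identifier group as a block, 211 without libraries under 1000000 counts, 532 without libraries of few genes, and 34 to 211 with single libraries left out. In cerebellum 3 members were called, against 0 by voom and 3 to 3 with single libraries left out, and genes called were 131, against 330 by DESeq2, 62 by voom and 91 to 179 with single libraries left out. Without kidney animal 3 there were 211 calls, and without animal 8, 34. Members called lower were 0 in each tissue and alternative.

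Signs turned for members without a call. In kidney the log2 fold change of Mavs was -0.032 without libraries of few genes, and with single libraries left out it ran from -0.031 (without p150-positive animal 5) to 0.21, and Tbk1 was -0.20 by voom. Effect differences, kidney over liver, with the replicate block were -0.27 for Dhx58, 0.69 for Tlr7 and -0.24 for Tmem173, and Tlr7 was 0.77 without libraries of few genes. The level of Tbk1, kidney over liver, was 0.22 with the block. The effect difference of Tlr3, cerebellum over liver, was 0.059 without libraries of few genes. Effect differences, cerebellum over kidney, were -0.93 for Tlr7 with the block and -2.09 without libraries of few genes, and -0.023 for Tmem173 with all libraries. The block changed no call beyond those of Ddx58 and Tmem173 between cerebellum and kidney. The causes were not tested. Of 5 p150-negative kidneys 1 had 0.27 M counts (M, 1000000), where a count of 0 allows up to 11.1 CPM.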

Other observations

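There were 5 libraries that did not carry genes of their labelled tissue and entered no comparison. The kidney-labelled library of p150-negative animal 11 had 195.5 CPM of Ddx58, 160.9 of Ifih1, 113.8 of Dhx58 and 148 of Tbk1. The kidney-labelled library of p150-positive animal 12 had 50.1 CPM of Ddx58, 77.9 of Ifih1, 2.23 of Dhx58 and 36.7 of Tbk1. These are single libraries of unlike tissue and are given as values alone.

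Animal 2, labelled p150-negative, had the lowest Ddx58, Ifih1 and Dhx58 of the p150-negative cerebella, at 12.8, 1.28 and 1.65 CPM. Its Ddx58 was still above every p150-positive cerebellum (highest 6.49 CPM). Its liver-labelled library had 37.3, 4.56 and 4.83 CPM of the same genes, and its kidney-labelled library 21.4, 7.50 and 2.22 CPM. The sums of 26 interferon-stimulated genes in these libraries were 248, 541 and 431 CPM. Whether its label is right was not tested.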
